A study of Mus musculus with 3 samples.

Results

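Conventional dendritic cells of the mouse liver were examined in droplet single-cell RNA sequencing data, in which each transcript molecule captured in a cell is counted as a unique molecular identifier (UMI). The cells were picked on raw UMIs of 13 genes. A conventional dendritic cell had at least 20 UMIs of the MHC class II genes H2-Aa, H2-Ab1 and H2-Eb1 together, no UMI of Siglech, of Cd79a and Cd3e, or of Clec4f and Vsig4, which mark plasmacytoid dendritic cells, B and T cells, and Kupffer cells. Cells with at least 2 UMIs of Xcr1 and Clec9a together were taken as type 1 (cDC1). The others needed at least 1 UMI of Flt3 and at least 1 of Cd209a or Clec10a and were taken as type 2 (cDC2). This gave 94 cells of 20950, namely 57 cDC1 and 37 cDC2.

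The series holds 3 libraries, 1 per group, of livers from mice on a Gsdmd floxed background. The first is labelled GsdmdFL/FL-Ctrl, with genotype WT and treatment Ctrl, and is called the control library here. The library labelled GsdmdFL/FL-IR has genotype WT and treatment IR. The library labelled Gsdmd∆Hep-IR has the genotype tag gsdmd-ko and treatment IR, and its title names a deletion in hepatocytes. The design text gives 30 Gy of irradiation and a liver harvest after 7 days. For the exposed body part, the Cre driver, the deleted exons, sex, age and the number of animals behind each library nothing is given in the sources used here. Since the control library differs from the library labelled Gsdmd∆Hep-IR in both genotype and irradiation, these cannot be told apart in that comparison. No test was run between groups, because a single library stands for each. All intervals are 95% intervals that cover counting error only, and a difference described as higher or lower is one between these libraries.

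The libraries held 7265 to 8214 barcodes and 52858425 to 78694038 UMIs, and 6618 (control), 6780 (GsdmdFL/FL-IR) and 7552 (Gsdmd∆Hep-IR) cells were kept, with median depths of 5958.5, 7520.5 and 8320.0 UMIs. Gsdmd, the pore-forming effector of pyroptosis that the labels name as deleted, was lowest in kept cells of the library labelled GsdmdFL/FL-IR (421 UMIs, 7.26 CPM, the UMIs per 1000000 of the summed total), and stood at 36.2 CPM in the control library and 36.8 CPM in the library labelled Gsdmd∆Hep-IR. The lowest level thus belongs to a library labelled WT. The counts come from the 3' end of transcripts and the deleted exons are not known here, so they do not check the deletion itself. Among the dendritic cells Gsdmd had 29 UMIs in the control library (40.6 CPM), 0 in the library labelled GsdmdFL/FL-IR and 49 in the library labelled Gsdmd∆Hep-IR (51.8 CPM). The ratio of the last to the first was 1.28 (0.790 to 2.09).

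Conventional dendritic cells take up antigen, cut it into peptides and show the peptides to T cells on MHC molecules. cDC1 depend on the transcription factors Irf8 and Batf3 and are known for cross-presentation, the display of captured antigen on MHC class I to CD8+ T cells. cDC2 are more often tied to presentation on MHC class II to CD4+ T cells and share several surface and secreted proteins with monocytes. Both arise from bone marrow precursors, need signals through the receptor Flt3, and sit mainly around the portal tracts of the liver.

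Irf8 and the MHC class I genes are the members whose levels the comparison below turns on, so 3 of their promoters are shown, chosen because each holds a motif. They are reference sequences from RefSeq (build GRCm38.p6, plus strand), 250 bases before to 50 bases after the annotated start, with 2 motifs in capitals on either strand. The gamma-activated site (GAS) is written TTCNNNGAA and is a motif of interferon-gamma signalling. The core shared by interferon-stimulated response elements (ISRE) is written GAAANNGAA, or TTCNNTTTC on the other strand. The Irf8 promoter at chr8:120736108-120736407 held 2 GAS motifs, the B2m promoter at chr2:122147437-122147736 held 1 ISRE core, and the Psmb8 promoter at chr17:34197945-34198244 held 1 GAS motif.
Irf8: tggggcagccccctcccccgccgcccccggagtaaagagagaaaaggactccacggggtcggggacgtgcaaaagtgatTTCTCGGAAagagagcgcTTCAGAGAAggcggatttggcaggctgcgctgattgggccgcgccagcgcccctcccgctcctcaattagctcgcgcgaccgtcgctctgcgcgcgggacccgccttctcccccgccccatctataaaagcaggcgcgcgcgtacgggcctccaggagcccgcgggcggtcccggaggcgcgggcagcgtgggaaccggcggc
B2m: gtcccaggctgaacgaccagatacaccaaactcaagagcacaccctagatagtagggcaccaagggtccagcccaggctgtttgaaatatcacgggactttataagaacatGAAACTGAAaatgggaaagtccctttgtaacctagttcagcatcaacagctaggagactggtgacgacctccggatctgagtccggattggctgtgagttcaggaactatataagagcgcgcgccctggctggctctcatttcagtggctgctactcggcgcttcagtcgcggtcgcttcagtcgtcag
Psmb8: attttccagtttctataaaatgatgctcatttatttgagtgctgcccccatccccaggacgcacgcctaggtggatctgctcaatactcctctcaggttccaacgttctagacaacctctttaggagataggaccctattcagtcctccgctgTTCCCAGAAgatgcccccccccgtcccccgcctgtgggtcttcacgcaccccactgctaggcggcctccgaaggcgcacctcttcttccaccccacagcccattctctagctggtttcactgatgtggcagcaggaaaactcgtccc
A second annotated start of Irf8 (chr8:120738389-120738688) had neither string, and neither did the promoters of H2-K1, H2-D1, H2-Q7, Psmb9 and Tap1. Among all 32851 RefSeq promoters of this length, 8.30% held a GAS and 8.56% an ISRE core. The shares were 7.69% and 19.2% over 26 promoters of the MHC class I list, and 25% and 56.8% over 44 promoters of the interferon-stimulated list. These matches describe letters in a window and were not measured as binding sites.

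Conventional dendritic cells were rare in every library and rarest in the library labelled GsdmdFL/FL-IR, where only 2 cells met the rule. In the control library 41 of 6618 cells met it (0.620%, exact Clopper-Pearson interval 0.445 to 0.840%), and in the library labelled Gsdmd∆Hep-IR 51 of 7552 did (0.675%, 0.503 to 0.887%). The share of 0.0295% (0.00357 to 0.107%) in the library labelled GsdmdFL/FL-IR was 21.0-fold below the control library (5.45 to 179) and 22.9-fold below the library labelled Gsdmd∆Hep-IR (6.02 to 194). The ratio of the library labelled Gsdmd∆Hep-IR to the control library was 1.09 (0.708 to 1.69). The shares follow from the thresholds. At the first step, 2071 control cells, 31 cells of the library labelled GsdmdFL/FL-IR and 364 of the library labelled Gsdmd∆Hep-IR had 20 or more of those UMIs. Shares of all cells also depend on how many of the other cells were recovered. Among cells with a UMI of the pan-leukocyte gene Ptprc the shares were 1.02%, 0.0561% and 1.25%.

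**Figure D1:**
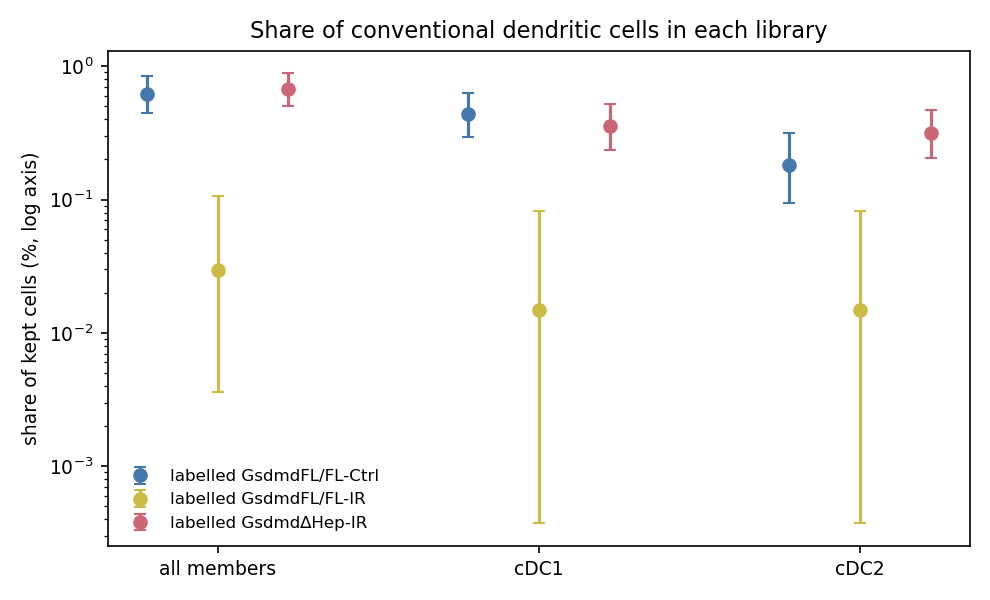
Share of kept cells (percent, log axis) that met the rule for all conventional dendritic cells, cDC1 and cDC2 in each library, with exact Clopper-Pearson 95% intervals that cover counting error only. The control library and the library labelled Gsdmd∆Hep-IR overlap in each class, and the library labelled GsdmdFL/FL-IR lies below both with 1 cDC1 and 1 cDC2.

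Both subsets were present in the control library and in the library labelled Gsdmd∆Hep-IR. cDC1 numbered 29, 1 and 27 cells in the order control, GsdmdFL/FL-IR and Gsdmd∆Hep-IR, and cDC2 12, 1 and 24 cells. cDC1 made up 70.7% of the control cells (54.5 to 83.9%) and 52.9% of those in the library labelled Gsdmd∆Hep-IR (38.5 to 67.1%), intervals that overlap. Per kept cell, the ratio of that library to the control library was 0.816 for cDC1 (0.465 to 1.43) and 1.75 for cDC2 (0.843 to 3.85). Because the mix of subsets is not the same, most genes are given below within cDC1 or within cDC2. In a ratio given over both subsets, the mix of subsets and the level within them cannot be told apart.

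The thresholds can be read against the cells at their edge. The dendritic cell with the fewest MHC class II UMIs had 21 in the control library and 31 in the library labelled Gsdmd∆Hep-IR, against medians of 387 and 288. Exactly 2 UMIs of Xcr1 and Clec9a were seen in 5 control cDC1 and in 8 cDC1 of the library labelled Gsdmd∆Hep-IR, and exactly 1 UMI of Cd209a or Clec10a in 1 and 9 cDC2. Just outside stood 5 and 8 cells with 1 UMI of Xcr1 or Clec9a, and 11 and 67 cells with Cd209a or Clec10a but no Flt3. Without the MHC class II minimum 32, 176 and 179 further cells would have met the rule in the order control, GsdmdFL/FL-IR and Gsdmd∆Hep-IR, and the order of the shares would turn over (1.10%, 2.63% and 3.05%). Those further cells had 62, 372 and 353 Clec9a UMIs and no Xcr1 UMI, a median of 0 MHC class II UMIs, and 25, 140 and 142 of them met a rule for endothelial cells. Thinning every cell to 3000 UMIs left 26, 0 and 7 dendritic cells, and the ratio of the library labelled Gsdmd∆Hep-IR to the control library was then 0.230 (0.0842 to 0.543). The exclusions acted unequally: 147, 4 and 59 cells met the other steps, in the order control, GsdmdFL/FL-IR and Gsdmd∆Hep-IR, and 41, 2 and 51 were left. With exclusions at 3 UMIs instead of 1, the ratio of the last library to the control library was 0.847 (0.578 to 1.24). It was 0.611 for cDC1 (0.370 to 0.997) and 1.48 for cDC2 (0.769 to 2.94). Some genes of the rule had fewer UMIs per cell in the library labelled Gsdmd∆Hep-IR. Xcr1 and Clec9a together had a median of 11 UMIs per control cDC1 (2 to 41) and 4 per cDC1 of the library labelled Gsdmd∆Hep-IR (2 to 13), while the median of Flt3 in cDC1 was 3 in both.

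Some of the cells carried UMIs of another cell type. By thresholds of 100 UMIs of S100a8 and S100a9, 10 of Stab2, Ptprb and Kdr, or 10 of C1qa, C1qb and C1qc, 4 of 41 control cells (2 macrophage, 2 endothelial) and 7 of 51 in the library labelled Gsdmd∆Hep-IR carried such markers and are called marked cells (2 neutrophil, 4 endothelial, 2 macrophage, with 1 cell counted under both of the last). The 2 cells with neutrophil markers held 4452 and 8104 UMIs of S100a8 and S100a9, and the second was also the deepest cell, with 71407 UMIs. The summed level of the neutrophil list was 21, 20 and 15364 UMIs in the order control, GsdmdFL/FL-IR and Gsdmd∆Hep-IR, and 18 in the control library and 484 in the library labelled Gsdmd∆Hep-IR without the marked cells. The 44 unmarked cells of that library each held 3 to 20 UMIs of S100a8 and S100a9 (median 7), against 0 to 4 in the 37 unmarked control cells (median 0). The level of the monocyte list was 0.347%, 1.21% and 0.460% of all UMIs. The B cell list summed to 136, 0 and 11 UMIs, with 5 of its 11 genes at 0 in all libraries, and the T cell list to 7, 0 and 4 UMIs, with 5 of 10 genes at 0. Scrublet marked 0, 0 and 3 of the dendritic cells as doublets. For the ratios and list counts below, values without the marked cells are given where a ratio moved by more than 1.5-fold or a call changed. No barcode was shared by dendritic cells of different libraries, and the barcode of 1 dendritic cell also occurred in another library.

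Summed over the cells, the cDC1 label held against genes that the rule did not use, while genes higher in cDC2 are partly shared with monocytes. These sums do not check the label of each cell. Irf8, the master regulator of cDC1, was found in all 29 control cDC1 and in 25 of 27 cDC1 of the library labelled Gsdmd∆Hep-IR, at 31.9-fold (17.3 to 66.8) and 15.6-fold (9.62 to 27.1) its level in cDC2. In 9 of those 27 cells Irf8 lay below the lowest control cDC1. Cadm1, an adhesion molecule of cDC1, had 148 and 70 UMIs in cDC1 and none in cDC2. Tlr3, a sensor of double-stranded RNA, had 85 and 37 UMIs in cDC1 against 1 and 0 in cDC2, and Wdfy4, needed for cross-presentation, was 3.67-fold and 10.2-fold higher in cDC1. Itgae, the CD103 integrin chain, had 58 and 131 UMIs in cDC1 and none in cDC2. In cDC2, Zeb2, a transcription factor of cDC2 and monocytes, was 11.6-fold and 14.3-fold above cDC1, and S100a4, a calcium-binding protein, was 20.2-fold and 19.8-fold above. Itgam, the CD11b integrin chain, was 20.2-fold and 7.46-fold higher in cDC2. Without the marked cells these differences were 32.3-fold and 63.4-fold for Zeb2, 31.6-fold and 116-fold for S100a4, and 26.9-fold and 45.5-fold for Itgam. Clec4a4, a marker of some cDC2, had no UMI in any dendritic cell, and Sirpa had only 22 and 48 UMIs in cDC2. Of the monocyte list, 5 of 6 measured genes were at least 2-fold higher in cDC2 in the control library, against 11.8% of all genes. In the library labelled Gsdmd∆Hep-IR 9 of 10 were, against 10.5%. The list summed to 0.683% and 0.630% of cDC2 UMIs and 0.238% and 0.344% of cDC1 UMIs, marked cells included. The genes named here therefore do not by themselves separate cDC2 from monocytes.

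Over the 2966 genes with at least 30 UMIs in cDC1 and cDC2 of the control library, 11.8% were at least 2-fold higher and 11.8% at least 2-fold lower in cDC1. In the library labelled Gsdmd∆Hep-IR, 11.8% of 3719 were higher and 10.5% lower. Of the cDC1 identity list, in which the rule genes are not counted, 18 of 21 genes were at least 2-fold higher in control cDC1 and 16 of 18 in the library labelled Gsdmd∆Hep-IR, with medians of 4.47 and 3.05 on the log2 scale against -0.02 and 0.05 over all genes. Of the cDC2 identity list, 8 of 12 and 10 of 15 were at least 2-fold lower in cDC1. Scaling by trimmed means (TMM) would add 0.27 to every log2 ratio in the control library and 0.02 in the other. Among 2727 genes measured in both libraries, 129 were higher in cDC1 in both, which is 46.2% of the 279 called in the control library and 42.3% of the 305 called in the other. Another 129 were higher in cDC2 in both, 41.5% of 311 and 59.2% of 218. The steadiest differences included Gpr141b, a receptor with 69 and 46 UMIs in cDC1 and none in cDC2, and Fn1, the matrix protein fibronectin, 50.7-fold and 27.4-fold higher in cDC2 (90.1-fold and 86.8-fold without the marked cells). Ifitm1 was 103-fold higher in cDC2 than in cDC1 of the library labelled Gsdmd∆Hep-IR (57.0 to 206) and 2.76-fold higher in control cDC2 (0.926 to 8.05). This difference between libraries was not tested.

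**Figure D2:**
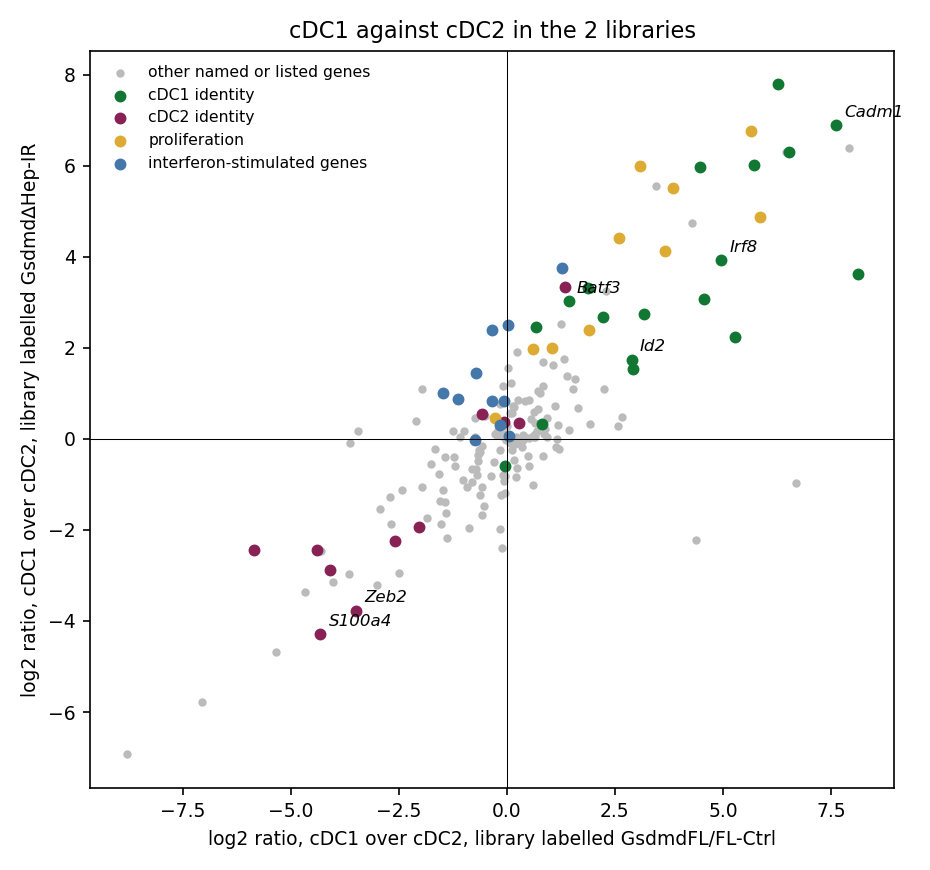
Log2 ratio of cDC1 over cDC2 for named and listed genes in the control library (x axis) and in the library labelled Gsdmd∆Hep-IR (y axis), each point a gene with colour by list. The cDC1 identity and proliferation genes lie mostly at upper right and the cDC2 identity genes mostly at lower left, with Irf8 at 31.9-fold and 15.6-fold.

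The main comparison set the library labelled Gsdmd∆Hep-IR against the control library on UMIs summed per subset, in CPM of the subset's total. The totals were 540142 and 562701 UMIs for cDC1 in the order control and Gsdmd∆Hep-IR, and 174157 and 383845 for cDC2. Median depth per cell was 18359 and 20530.0 UMIs in cDC1 and 14752.0 and 14059.5 in cDC2. In cDC1, 8.37% of 4087 genes with at least 30 UMIs were at least 2-fold higher in the library labelled Gsdmd∆Hep-IR and 6.24% at least 2-fold lower. In cDC2, 9.96% of 2460 genes were higher and 9.35% lower. Over both subsets together the shares were 7.47% and 7.21% of 5423 genes, and 7.13% and 6.62% of 4698 without the cells that carried markers of another type. The shares of each subset are the background for the list counts below. Within a subset no share was taken without the marked cells, so list counts without them have no matching background. TMM scaling would shift the cDC1 log2 ratios by -0.06 and the cDC2 ones by 0.27. The number of cells with a UMI is given where a sum could rest on few cells.

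The summed cDC1 programme was lower in the cells placed as cDC1 of the library labelled Gsdmd∆Hep-IR. Exactly 2 UMIs of Xcr1 and Clec9a were seen in 8 of these 27 cells, against 5 of 29 control cDC1. Both cells without an Irf8 UMI were among those 8. The part of cells wrongly placed as cDC1 in the values below was not tested. In cDC1, 11 of 23 measured identity genes were at least 2-fold lower and 1 was higher, with a median log2 ratio of -0.97 against 0.07 over all genes. Irf8 ranged from 367 CPM in the lowest control cDC1 through a median of 1802 to 3741. In the library labelled Gsdmd∆Hep-IR it ranged from 0 through 509 to 2048 CPM, and 26 of 27 cells lay below the control median, 9 of them below the lowest control cell. The summed level was 1833 CPM (exact Poisson interval 1720 to 1951) against 691 CPM (624 to 764), 2.65-fold lower (2.36 to 2.99). The ranges overlap from 367 to 2048 CPM, and the control range above that was empty in the other library. The single cDC1 of the library labelled GsdmdFL/FL-IR had 4 Irf8 UMIs (185 CPM).

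Batf3, the partner that sustains Irf8 in cDC1, was 1.40-fold lower (1.05 to 1.86), from 218 to 156 CPM, and was found in 26 of 29 and 24 of 27 cells. Cadm1 was 2.20-fold lower (1.65 to 2.97) and Tlr3 2.39-fold lower (1.61 to 3.62). Zbtb46, a transcription factor of all conventional dendritic cells, had 28 and 9 UMIs and was 3.24-fold lower in CPM, and Itgax, the CD11c chain, was 2.24-fold lower, and 1.96-fold without the cells that carried markers of another type, which ends its call. Pianp had 65 UMIs in 19 control cDC1 and 7 UMIs in 5 cells of the other library, 9.67-fold lower (4.44 to 25). Xcr1 and Clec9a, which chose the cells, had 335 and 330 CPM in control cDC1 and 87.1 and 172 CPM in the library labelled Gsdmd∆Hep-IR, given here as a description.

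Not every cDC1 gene was lower. Id2, a transcriptional inhibitor that dendritic cell precursors need, ranged over 0, 799 and 2615 CPM in control cDC1 (lowest, median, highest) and over 109, 1454 and 3704 CPM in the library labelled Gsdmd∆Hep-IR. The cells of the libraries overlap widely, with a summed ratio of 1.55 (1.39 to 1.72). In cDC2 Id2 was 3.44-fold higher (2.24 to 5.51). Itgae was found in 13 of 29 control cDC1 and in 21 of 27 cDC1 of the library labelled Gsdmd∆Hep-IR, where it was 2.17-fold higher (1.58 to 3.01) and 8 cells exceeded the control maximum of 432 CPM. Ifi205, an interferon-inducible gene of cDC1, was 1.85-fold higher. So Itgae was the only one of the 23 measured identity genes past 2-fold in that direction.

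**Figure D3:**
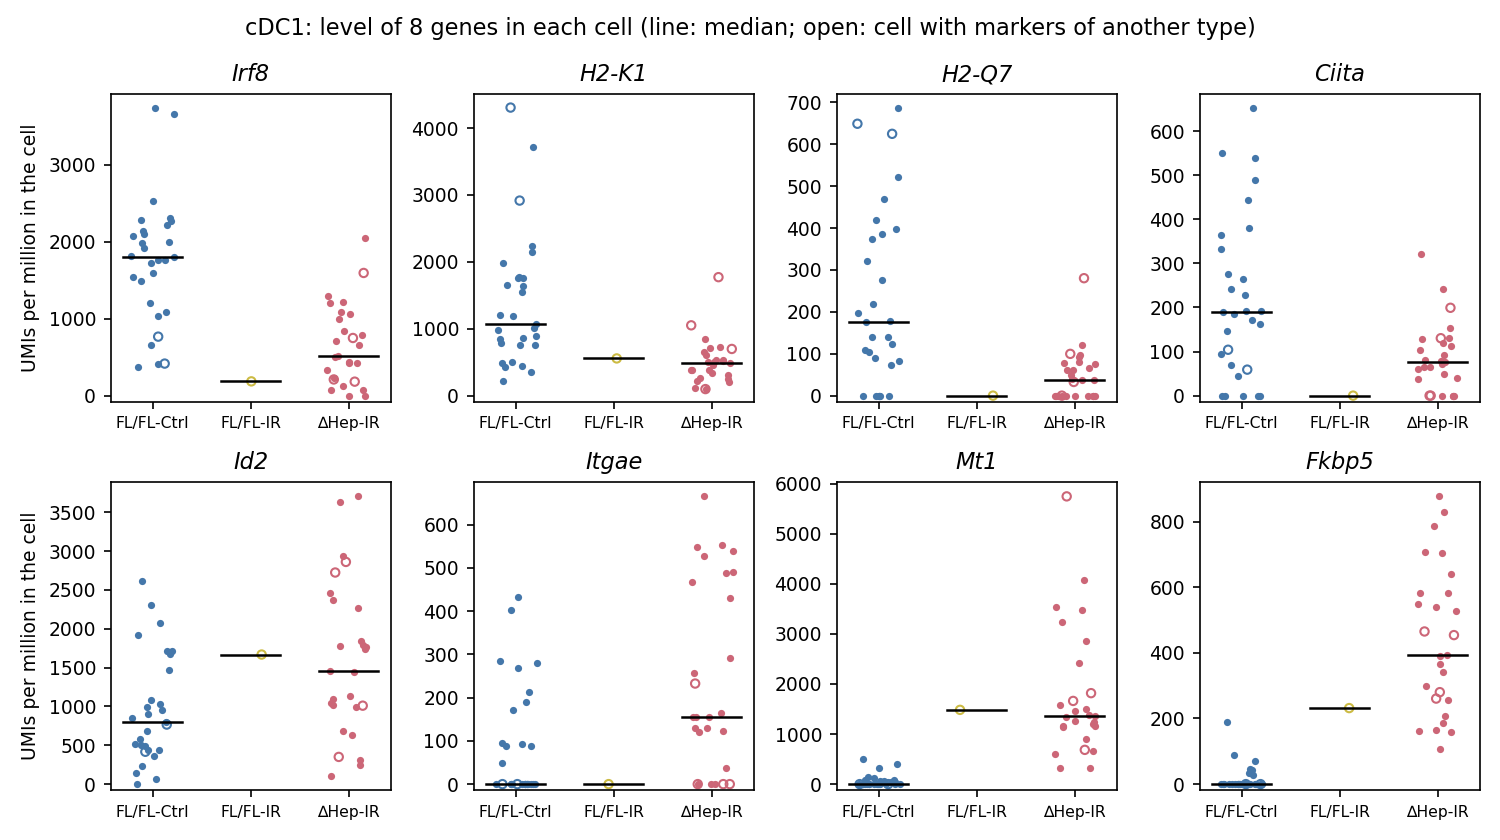
Level of 8 genes in each cDC1 (UMIs per 1000000 of the cell), by library, with the median as a line and cells carrying markers of another type as open circles. Irf8, H2-K1, H2-Q7 and Ciita lie lower in the library labelled Gsdmd∆Hep-IR, Id2 and Itgae overlap with higher medians there, and Mt1 and Fkbp5 lie above nearly all control cells.

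Of the other transcription factors, Cebpb, a factor of inflammatory and myeloid genes, was higher in both subsets of the library labelled Gsdmd∆Hep-IR. It was 4.02-fold higher in cDC1 (2.96 to 5.56) and 5.05-fold higher in cDC2 (3.76 to 6.91), and 2.65-fold and 2.80-fold without the cells that carried markers of another type. 262 of its 545 UMIs in cDC2 came from 1 cell, the one with 8104 neutrophil marker UMIs. Rbpj, which relays Notch signals, was 2.24-fold lower in cDC1. Irf4, a cDC2 factor, had 18 UMIs in the cDC2 of each library. In CPM of cDC2 it was 2.20-fold lower in the library labelled Gsdmd∆Hep-IR (1.08 to 4.49), and 1.30-fold without the marked cells. Over the list of 27 factors, 4 of 23 measured in cDC1 were lower and 1 higher, and 1 of 19 measured in cDC2 was lower and 3 higher (0 and 4 of 18 without the marked cells).

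MHC class I was lower in both subsets. Of the 24 listed genes of class I presentation, 6 of 22 measured in cDC1 and 10 of 17 in cDC2 were at least 2-fold lower in the library labelled Gsdmd∆Hep-IR and none was higher, with medians of -0.91 and -1.10 on the log2 scale against 0.07 and -0.04 over all genes. H2-K1, a class I heavy chain, had 220, 1072 and 4306 CPM in control cDC1 (lowest, median, highest) and 97.4, 484 and 1771 CPM in cDC1 of the other library. The highest cell of each carried macrophage markers, and without the marked cells the highest values were 3720 and 853 CPM. In 26 of 27 cells it lay below the control median, and it was 2.72-fold lower in sum (2.37 to 3.13). In cDC2 it had 619, 1206 and 2140 CPM in the control library and 106, 590 and 1541 in the other, where 13 of 24 cells were below the lowest control cell, and the sum was 2.13-fold lower (1.76 to 2.57), or 1.87-fold without the marked cells, which ends its call. The list count in cDC2 was then 9 of 16. TMM scaling, which adds 0.27 to each cDC2 log2 ratio, also takes H2-K1 below 2-fold in cDC2. The list counts were made without that scaling, under which the cDC2 median of the list stays below 0. The 2 cells of the library labelled GsdmdFL/FL-IR had 556 CPM (cDC1) and 424 CPM (cDC2) of H2-K1, below the control medians.

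The second heavy chain, H2-D1, was 2.28-fold lower in cDC1 (2.07 to 2.52) and 1.49-fold in cDC2 (1.30 to 1.70). B2m, the light chain, was 1.99-fold lower in cDC1 (2501 against 1260.0 CPM) and 2.61-fold lower in cDC2 (2888 against 1107 CPM). H2-Q7, a non-classical heavy chain, was 4.63-fold lower in cDC1 (3.08 to 7.19) and 6.21-fold in cDC2 (3.04 to 13.7), where it was 3.94-fold without the marked cells. These heavy chains are close copies of each other, so the authors' counting could have moved UMIs between them, while B2m has no such copy in the list. The immunoproteasome subunit Psmb9 was 2.0-fold lower in cDC1 and 5.20-fold in cDC2 (2.71 to 10.5), and Psmb8, whose promoter is printed above, 1.46-fold (1.29 to 1.67) and 2.15-fold (1.58 to 2.93). With TMM scaling the Psmb8 difference in cDC2 falls below 2-fold. Tap1, which pumps peptides to class I molecules, was 2.01-fold lower over both subsets (1.58 to 2.56), and 1.79-fold without the cells that carried markers of another type, which ends its call. The third inducible subunit, Psmb10, had a ratio of 0.912 (0.703 to 1.19). Summed over the list, class I transcripts were 1.33% of cDC1 UMIs in the control library and 0.691% in the library labelled Gsdmd∆Hep-IR, and 1.11% and 0.570% of cDC2 UMIs. Over its 2 cells the library labelled GsdmdFL/FL-IR had 0.579% (0.503 to 0.664%).

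Some genes of MHC class II presentation were lower, most of them in cDC1. H2-Aa, H2-Ab1 and H2-Eb1 chose the cells and are left out of the counts. In cDC1, 4 of 11 measured genes were at least 2-fold lower and 1 higher, with a median log2 ratio of -0.19. In cDC2, 2 of 10 were lower and none higher, with a median of -0.25 that TMM scaling turns above 0. None of 7 in cDC2 was lower without the marked cells, with a median of 0.22. Ciita, the transactivator of class II genes, was found in 24 of 29 control cDC1 (median 190 CPM, highest 653) and in 21 of 27 of the other library (median 75.3 CPM, highest 321), 2.89-fold lower in sum (2.07 to 4.09). In cDC2 its ratio was 0.822 (0.432 to 1.62). H2-Oa and H2-Ob form a chaperone that restrains peptide loading, and in cDC1 they were 4.21-fold (2.67 to 6.89) and 4.56-fold lower (3.03 to 7.09). Cd83, a surface protein that stabilises class II, was 2.38-fold and 2.35-fold lower in cDC1 and cDC2, and 1.78-fold in cDC2 without the marked cells, which ends that call. The loading catalyst H2-DMa and its partner H2-DMb1 had ratios of 0.949 and 0.997 over both subsets, so the list did not move as 1 block. The protease Ctss was 1.84-fold higher.

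**Figure D4:**
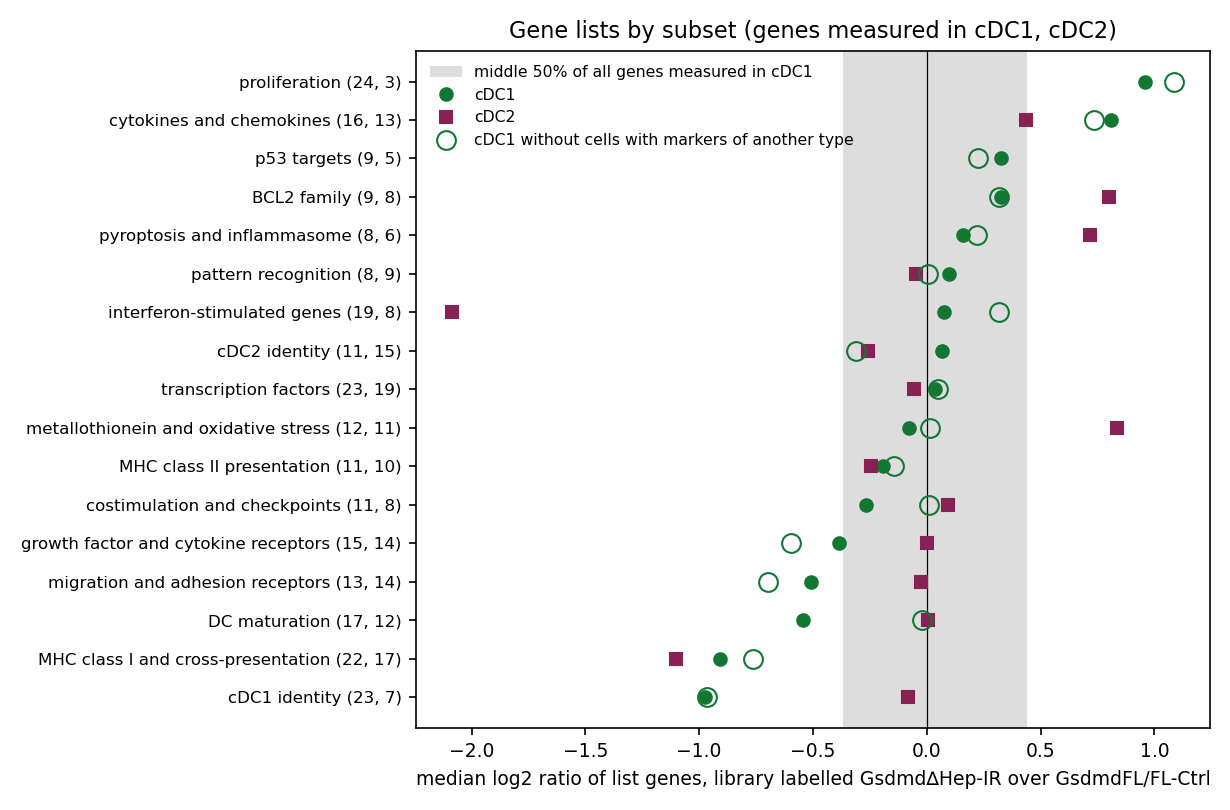
Median log2 ratio of each gene list, library labelled Gsdmd∆Hep-IR over control, in cDC1 (circles), cDC2 (squares) and cDC1 without cells that carried markers of another type (open circles), with the numbers of genes measured and, shaded, the middle 50% of all genes measured in cDC1. MHC class I lies below 0 in both subsets (-0.91 and -1.10), while proliferation is highest in cDC1 (0.96) and interferon-stimulated genes are lowest in cDC2 (-2.08).

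Most of the listed interferon-stimulated genes measured in cDC2 were lower there, and the list showed no common direction in cDC1. Of 8 measured in cDC2, 6 were at least 2-fold lower in the library labelled Gsdmd∆Hep-IR, with a median of -2.08, while in cDC1 2 of 19 were lower and 2 higher, with a median of 0.07, near the value over all genes. With the marked cells left out, 4 of 5 measured in cDC2 were lower, with a median of -1.28, and in cDC1 1 of 18 was lower and 2 higher, with a median of 0.32. Over all genes measured in cDC2, 9.35% were at least 2-fold lower. The measured genes are not the same in the subsets, and the difference was not tested. They are those of 46 matched genes with at least 30 UMIs over both libraries, which a gene high in a single library can reach. Summed over all 46 with no minimum and marked cells included, the list was 0.357% of control cDC2 UMIs and 0.0977% in the other library. In cDC1 it was 0.232% and 0.191%. Bst2, an antiviral membrane protein, had 109 UMIs in all 12 control cDC2 and 43 UMIs in 17 of 24 cDC2 of the other library, 5.59-fold lower (3.89 to 8.15), and was 1.48-fold lower in cDC1. Trim30a was 7.99-fold and Slfn5 3.65-fold lower in cDC2. Isg15 was 2.16-fold higher in cDC1, with 26 of its 45 UMIs from 1 cell. Ifitm1, a membrane protein that blocks viral entry, is not among the genes counted above and went the other way. It had 8 UMIs in control cDC2 and 770 UMIs in 23 of 24 cDC2 of the other library (45.9 against 2006 CPM), 43.7-fold higher (22.1 to 102). In cDC1 it had 9 and 11 UMIs.

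Chemokines and cytokines were mixed, and a few cells held most of the UMIs of several. In cDC1, 6 of 16 measured genes were at least 2-fold higher in the library labelled Gsdmd∆Hep-IR and 3 lower, and in cDC2 5 of 13 were higher and none lower, with medians of 0.81 and 0.44. Over all genes 8.37% were higher and 6.24% lower in cDC1, and 9.96% and 9.35% in cDC2. With the marked cells left out, the counts were 5 higher and 2 lower of 12 in cDC1 and 5 higher and 2 lower of 10 in cDC2. Ccl4, which draws monocytes and T cells, was 3.41-fold higher in cDC1 (2.97 to 3.93) and 1.64-fold lower in cDC2 (1.38 to 1.94), where it was 2.16-fold lower without the marked cells. Ccl2, the main monocyte attractant, was 6.0-fold higher over both subsets (3.80 to 9.95), and Cxcl2, a neutrophil attractant, 14.8-fold (8.50 to 28.2). Cxcl9 and Cxcl10, both T cell attractants, stood apart from each other. Cxcl9 had 613 UMIs in 9 control cDC1, of which 296 in 1 cell, and 162 UMIs in 4 cDC1 of the other library, and was 2.38-fold lower without the cells that carried markers of another type in place of 3.94-fold. Cxcl10 had 29 UMIs in 6 control cDC1 and 149 in 8 cDC1 of the other library, of which 127 in 1 cell, and the counts without the marked cells were 10 and 147. Ccl17, a product of activated dendritic cells, had no UMI in 12 control cDC2 and 185 in 8 of 24 cDC2 of the other library, at least 28.0-fold higher against a floor of 3 UMIs for the group. In cDC1 it was found in 2 of 29 and 12 of 27 cells. The costimulatory ligand Tnfsf9 was 8.48-fold higher in cDC1 (3.65 to 24.1) and 2.11-fold in cDC2.

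Genes of dendritic cell maturation were uneven. In cDC1, 6 of 17 measured were at least 2-fold lower and 1 higher, with a median of -0.54, and without the cells that carried markers of another type 5 of 14 were lower and 1 higher, with a median of -0.02. Serpinb6b, a protease inhibitor, had 71 UMIs in 16 of 29 control cDC1 and 2 UMIs in 2 of 27 cDC1 of the library labelled Gsdmd∆Hep-IR, 37.0-fold lower (9.87 to 311). Apol7c had 271 UMIs in 5 control cDC1, of which 156 in 1 cell, and none in the other library, at least 94.1-fold lower against the floor. Cd274, the PD-L1 ligand, was 3.24-fold lower and Ccl22, an attractant of regulatory T cells, 3.29-fold lower in cDC1. Ccr7, the receptor that guides mature dendritic cells to lymph nodes, was found in 5 control cells and 6 cells of the library labelled Gsdmd∆Hep-IR, with 12 and 18 UMIs. Gpr183, a receptor that positions dendritic cells, was 4.34-fold higher in cDC1 (2.69 to 7.34), and Ccr2, which guides cells out of the bone marrow, was 2.01-fold lower (1.5 to 2.72).

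Of the 8 genes read in each cDC1, Mt1 and Fkbp5 had the most cells of the library labelled Gsdmd∆Hep-IR outside the control range. The 8 were not drawn by a rule, and such cells were not counted over all genes. How common such separation is between these libraries is therefore not known. Mt1, which binds zinc and is induced by metals, glucocorticoids and oxidative stress, had 0, 0 and 498 CPM in control cDC1 (lowest, median, highest) and 319, 1363 and 5745 CPM in cDC1 of the library labelled Gsdmd∆Hep-IR. 25 of 27 cells lay above the control maximum, and the sum was 23.6-fold higher (17.2 to 33.4). In cDC2 the ranges were 0, 0 and 410 CPM and 350, 1998 and 12172 CPM, with 23 of 24 cells above the control maximum and a sum 19.1-fold higher (12.3 to 31.4), or 43.4-fold without the marked cells. The 2 cells of the library labelled GsdmdFL/FL-IR had 1483 and 2754 CPM, within the range of the other irradiated library and above every control cell. Mt2 had 1 UMI in the control library and 314 in the library labelled Gsdmd∆Hep-IR.

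Fkbp5, a chaperone of the glucocorticoid receptor that glucocorticoids induce, had 0, 0 and 190 CPM in control cDC1 and 108, 394 and 877 CPM in the other library, 32.6-fold higher in sum (15.6 to 82.1). In cDC2 it was 13.7-fold higher (5.22 to 51.2), and 22 of 27 cDC1 and 22 of 24 cDC2 exceeded the control maximum of their subset. The cells of the library labelled GsdmdFL/FL-IR had 232 and 282 CPM. Fth1, the heavy chain of the iron store ferritin, was 2.29-fold higher in cDC1 and 2.63-fold in cDC2. Of the list for metallothioneins and oxidative stress, 4 of 12 measured in cDC1 were at least 2-fold higher and 1 lower, with a median of -0.080, and 4 of 11 in cDC2 were higher and none lower, with a median of 0.84. Without the marked cells 3 were higher and 2 lower of 12 in cDC1, and 4 of 10 in cDC2 were higher. Phgdh, the first enzyme of serine synthesis, was found in 4 of 29 control cDC1 and 23 of 27 cDC1 of the library labelled Gsdmd∆Hep-IR, 19.5-fold higher (8.71 to 54.2), and had 2 and 0 UMIs in cDC2. Fgfr1, a growth factor receptor, was 6.11-fold higher in cDC1 (3.75 to 10.5) and 5.81-fold in cDC2 (2.36 to 18.5).

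Cell cycle genes were higher in cDC1 of the library labelled Gsdmd∆Hep-IR, where few cells held most of the UMIs. Of 24 measured, 10 were at least 2-fold higher and none lower, with a median of 0.96 (12 of 23, with a median of 1.08, without the cells that carried markers of another type), and in cDC2 none of 3 measured passed 2-fold. Cdk1, the kinase that starts mitosis, was 4.24-fold higher (2.24 to 8.72), and Ube2c, which marks cyclins for destruction, 2.76-fold (1.97 to 3.92). Mki67 and Top2a had ratios of 1.2 and 1.64. At least 10 UMIs of these genes were seen in 2 of 29 control cDC1, which held 99 of 115 such UMIs, and in 6 of 27 cDC1 of the other library, which held 160 of 169. The other cells had at most 6 and 3. After thinning each cell to 3000 UMIs, 3 of 28 control cDC1 (10.7%, exact interval 2.27 to 28.2%) and 8 of 27 in the other library (29.6%, 13.8 to 50.2%) had a UMI of either gene, intervals that overlap. 1 control cell was too shallow to be thinned, and 10 and 12 cells had such a UMI before thinning. In cDC2 the thinned counts were 1 of 12 and 0 of 24.

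The cell cycle inhibitor Cdkn1a, a target of p53, was 5.24-fold higher in cDC1 (3.37 to 8.47), found in 5 of 29 and 17 of 27 cells, and 1.89-fold in cDC2 (1.39 to 2.61). Trp53inp1, another p53 target, had 7 and 23 UMIs in cDC1 and was 3.15-fold higher. Of the p53 targets measured, 4 of 9 in cDC1 were at least 2-fold higher and none lower, while 1 of 5 in cDC2 was lower and none higher. In cDC1 without the marked cells 1 of 5 measured was higher, with a median of 0.23. Of the pyroptosis list, 2 of 8 measured in cDC1 and 1 of 6 in cDC2 were at least 2-fold higher and none lower. Over all genes 8.37% and 9.96% were higher. Without the marked cells the list counts were 3 of 8 and 2 of 5, with no matching share over all genes. Those higher included Casp8, 3.31-fold in cDC1, and Ninj1, which ruptures the membrane of dying cells, 4.90-fold in cDC2. Casp1 and Nlrp3, the inflammasome protease and sensor, had ratios over both subsets of 1.07 (0.575 to 2.04) and 1.47 (1.01 to 2.17). Of the BCL2 family list, 2 of 9 measured in cDC1 and 2 of 8 in cDC2 were at least 2-fold higher and none lower (3 of 9 and 2 of 6 without the marked cells). The shares over all genes are the same 8.37% and 9.96%, and these list counts rest on few genes. The pro-death Bcl2l11 and the survival gene Bcl2a1a were 2.27-fold and 2.50-fold higher in cDC1, and Bcl2a1a 3.93-fold without the marked cells.

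Several of the largest ratios over both subsets rested on cells that carried markers of another type. Wfdc21, Saa3 and Pla2g7 were 48.9-fold, 55.7-fold and 37.4-fold higher, and 2.61-fold, 8.70-fold and 13.5-fold without the cells that carried markers of another type. Mmp8, a neutrophil collagenase, had 175 UMIs, 110 of them in 1 cell, and Cstdc4 had 111, 105 of them in 1 cell. 17 and 5 UMIs were left without the marked cells. Gda, guanine deaminase, was 25.4-fold higher (12.2 to 64.0) and 54.3-fold without those cells. At the lower end, Rtl8a was 18.6-fold (8.67 to 47.4), the early growth response factor Egr3 9.48-fold (5.28 to 18.5), and Fdps, an enzyme of the cholesterol pathway, 6.22-fold lower (3.94 to 10.2). Tnni2, Plaat3 and the ribonuclease Rnase6 were 6.79-fold, 6.90-fold and 4.45-fold lower.

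Monocyte genes were present beside the cDC2 differences. In cDC2 of the library labelled Gsdmd∆Hep-IR, Cd14, a co-receptor for bacterial lipopolysaccharide, was 6.71-fold higher (4.40 to 10.7), Il1r2, the decoy receptor for interleukin 1, 14.9-fold (6.72 to 41.1; 60.5-fold without the marked cells, from 126 UMIs against 1), and Itgam 2.93-fold. Csf2rb, the shared chain of the GM-CSF receptor, was 3.45-fold higher (2.01 to 6.36), and 2.50-fold without the cells that carried markers of another type. Chil3, a monocyte gene, had no UMI in the control dendritic cells and 529 in those of the other library, 409 of them in cDC2. Only 19 were left without the marked cells, 2 of them in cDC2. That library also held more MHC class II high monocytes and macrophages, picked without Flt3, Xcr1 and Clec9a UMIs, 184 cells (2.44%) against 25 (0.378%) in the control library and 3 (0.0442%) in the library labelled GsdmdFL/FL-IR. The part of such cells in the cDC2 values was not tested. Markers of cDC2 were mixed. In cDC2, 5 of 15 measured genes of the cDC2 identity list were at least 2-fold lower and 3 higher, with a median log2 ratio of -0.26. Without the marked cells 2 of 12 were lower and 3 higher, with a median of 0.17. Mgl2 had 1 and 32 UMIs, and Cd209a and Clec10a, which the rule used, had 620 and 184 CPM in the control library and 128 and 253 CPM in the other. Without the marked cells Clec10a had 142 and 323 CPM.

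The same genes were read in other populations of these libraries, picked by simple marker rules, to see where the dendritic cells differed. The ratio of the library labelled Gsdmd∆Hep-IR to the control library for Mt1 was 3.15 in MHC class II high monocytes and macrophages, 5.50 in Kupffer cells, 24.5 in endothelial cells, 17.4 in neutrophils and 16.3 in B cells. For Fkbp5 the ratios in the same order were 27.2, 7.63, 11.0, 2.94 and 9.44, so each was above 1 in all 5 populations. For H2-K1 they were 0.506, 0.494, 0.30, 0.197 and 0.568, and for B2m 0.559, 0.506, 0.301, 0.188 and 0.635, all below 1. Levels of Mt1 in the library labelled Gsdmd∆Hep-IR ran from 946 CPM in B cells to 16079 CPM in endothelial cells, against 1706 CPM in cDC1, and those of Fkbp5 from 114 CPM in neutrophils to 467 CPM in endothelial cells, against 423 CPM in cDC1. Free RNA was not removed, and S100a8 and S100a9 UMIs were seen in every dendritic cell of that library, as given above. The part of free RNA in the Mt1 and Fkbp5 values was not tested. Irf8 had ratios of 0.965, 0.540, 2.58, 0.349 and 0.716, against 0.377 in cDC1. None of these differences between populations was tested. The B cells numbered 1227 in the control library and 11 in the library labelled Gsdmd∆Hep-IR, and plasmacytoid dendritic cells 86 and 3.

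The 2 cells of the library labelled GsdmdFL/FL-IR allow only a description. The cell placed as cDC1 by 2 Clec9a UMIs had 0 Xcr1, 2 Flt3, 2 Batf3 and 1 Cadm1 UMIs beside 27 UMIs of C1qa, C1qb and C1qc and 245 of Lyz2, a lysozyme of macrophages and monocytes. Its label as cDC1 is therefore not borne out by these counts. The cell placed as cDC2 had 1 Flt3, 2 Cd209a, 1 Clec10a, 43 S100a4, 10 Itgam and 1 Zbtb46 UMIs, no C1q UMI and 488 MHC class II UMIs. Both had Mt1, with 32 and 39 UMIs, and neither had a UMI of Ifitm1 or Phgdh, against a floor of 139 and 212 CPM in the respective cell.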

How the data were processed

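Single-cell libraries were made with the Chromium 3' V3.1 kit, per the labels' protocols. The authors deposited raw UMI counts per gene and barcode, as whole numbers with no normalization, for 31253 genes, made with Cell Ranger 6.1.1 against mm10. These names, with CASAVA 1.8 and Seurat 4.0.3, come from the submitters' processing notes, which give no order. The gene annotation and any removal of free RNA are not given in the sources used here, and none was removed here.

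Barcodes with at least 500 UMIs, 250 genes and at most 25% mitochondrial UMIs were kept. Doublets were marked with Scrublet (scanpy 1.11.5, expected rate 6%, seed 7) and kept in the main values; 163, 236 and 295 cells were marked in the order control, GsdmdFL/FL-IR and Gsdmd∆Hep-IR. Raw counts were summed per library and subset and given as CPM (Python 3.11.15, pandas 2.3.3, scipy 1.17.1). Intervals are exact Clopper-Pearson for shares, exact Poisson for sums and exact conditional for ratios. UMIs of 1 cell are not independent draws of the condition, so intervals and floors cover only the error of counting. For log2 ratios 0.5 was added to each sum, and a gene was called at 2-fold on that scale with at least 30 UMIs over both sides. A sum of 0 was set to a floor of 3 counts. TMM factors came from edgeR 4.0.16 in R 4.3.3; no edgeR test was run.

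The rule for the cells, the gene lists and the alternatives were chosen with earlier results of these data known. Named genes are the rule genes and Gsdmd, up to 6 members per list and direction with the largest ratios, the 10 highest and 10 lowest of all genes with at least 100 UMIs and a UMI in at least 10% of cells of a library, and likewise for cDC1 against cDC2, without markers of other types and without mitochondrial, ribosomal, haemoglobin, sex-linked, antigen receptor or unnamed genes. Other genes described by their role were chosen after their values were seen. Counts were also simulated for all conventional dendritic cells of the library labelled Gsdmd∆Hep-IR and the control library (5415 genes). They were Poisson draws from the pooled sums, with no variation between cells or libraries. 100 of 100 genes changed 4-fold upwards and 100 of 100 changed downwards passed 2-fold, as did 0.901% and 0.575% of unchanged genes. These rates cover counting error only and do not give the error of the calls, where 1 cell can hold most UMIs of a gene. Alternatives were TMM factors, the mean of per-cell CPM, gene minimums of 10 and 100 UMIs, a prior count of 2, removal of doublets, a stricter cell filter (1000 UMIs, 500 genes, 10% mitochondrial), thinning, MHC class II minimums of 10, 50 and none, stricter subset genes and each subset alone. Removal of cells with markers of another type, over both subsets and in each, and exclusions at 3 UMIs were added after seeing the data. Some genes that the naming rule or the lists hold are not reported here by name.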

Additional observations from a re-analysis of the deposited data

Results flagged for a closer look

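The medians of the interferon-stimulated list lay on opposite sides of 0 in the subsets when the library labelled Gsdmd∆Hep-IR was set against the control library, with a median log2 ratio of 0.074 in cDC1 and -2.08 in cDC2. The value in cDC1 is near the median of 0.066 over all genes, so the list had no direction of its own there. Of 46 matched genes, 19 were measured in cDC1 and 8 in cDC2. The immediate early gene Egr1 also differed in sign, with a log2 ratio of -1.27 in cDC1 (281 and 121 UMIs) and 0.92 in cDC2 (14 and 59 UMIs). Neither difference between subsets was tested. Cells with at least 20 MHC class II UMIs and at least 2 UMIs of each of Ccr7 and Fscn1, which mark mature dendritic cells, were found outside the rule: 4 in the control library, 0 in the library labelled GsdmdFL/FL-IR and 2 in the library labelled Gsdmd∆Hep-IR. They had no UMI of Xcr1, Clec9a, Cd209a or Clec10a, and the 2 cells held 81 UMIs of Ccl22.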

How the results depend on the processing

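No paired analysis was possible because each group is 1 library, and no replicate could be left out. The share of conventional dendritic cells in the control library was 1.10% without the MHC class II minimum, 1.02% of Ptprc-positive cells and 0.892% with exclusions at 3 UMIs. In the library labelled GsdmdFL/FL-IR it was 0% after thinning and 2.63% without the minimum. In the library labelled Gsdmd∆Hep-IR it was 0.103% after thinning, 3.05% without the minimum, 0.450% with stricter subset genes and 1.25% of Ptprc-positive cells. The ratio of GsdmdFL/FL-IR to control was 0 after thinning and reversed to 2.38 without the minimum. That of Gsdmd∆Hep-IR to GsdmdFL/FL-IR was 1.16 without the minimum, and that of Gsdmd∆Hep-IR to control 0.230 after thinning and 2.76 without the minimum. The share of cDC1 was 84.6% in the control library after thinning and 79.1% in the library labelled Gsdmd∆Hep-IR without the minimum.

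Of genes past 2-fold, 405 were higher and 391 lower over both subsets; the counts were 818 and 897 at a minimum of 10 UMIs, 147 and 128 at 100, 88 and 74 after thinning, 245 and 230 in cDC2 alone, and 193 and 140 in cDC2 without cells with markers of another type, where fewer genes are tested. In cDC1 alone 255 were lower, and without cells with markers of another type 268 were higher and 235 lower. For cDC1 against cDC2 the control library had 880 higher and 1015 lower at 10 UMIs, 77 and 63 at 100, and 58 and 39 after thinning; the library labelled Gsdmd∆Hep-IR had 1047 and 857, 91 and 138, and 57 and 78.

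The median of the cDC1 identity list was -0.080 in cDC2 alone and -0.54 with equal weight of the subsets, and that of MHC class I -1.10 in cDC2 alone. In cDC2 without cells with markers of another type the medians were -0.38 for cDC1 identity, -1.09 for MHC class I and -1.28 for interferon-stimulated genes, and that of proliferation reversed to -0.40. The interferon-stimulated median was -0.16 without cells with markers of another type, -2.08 in cDC2 alone, and reversed to 0.074 in cDC1 alone and 0.32 in cDC1 without those cells. The proliferation median was 1.08 in cDC1 without those cells and reversed to -0.28 in cDC2 alone, and the pyroptosis median reversed to -0.019 after thinning. In cDC2 alone the log2 ratios of Phgdh, Lifr, Egr1 and Sult1a1 reversed to -2.89, -0.049, 0.92 and -0.31. Of 520 values for 40 named genes under 13 alternatives, 515 kept their sign, and of 258 for 18 lists under up to 15 alternatives, 224 did. Most of the 40 genes were named for the largest ratios of this comparison, and most alternatives reuse the same counts. Their kept signs are therefore no independent check of the ratios. The cause of the moves listed here was not tested. Depth limits the library labelled GsdmdFL/FL-IR most, with 2 cells and 35742 UMIs.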
